A study of Mus musculus with 8 samples.

Results

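The kynurenine pathway and its neighbours were represented by 9 genes (Ido1, Kynu, Kmo, Haao, Afmid, Wars, Ahr, Cyp1a1 and Tdo2), out of 16593 named genes on the array. They were chosen by gene symbol in the platform annotation, which gave 18 of the 25697 probes. Ido1 and Kynu were put on the list because an earlier look at these same arrays showed Ido1 higher and Kynu lower in knockout colon, so the genotype differences of the 9 genes are descriptions and carry no test. Expression was measured in whole colons of 4 wildtype and 4 Indian Hedgehog knockout mice, all C57BL/6, on 1 Illumina beadchip. Wildtype mice were Villin-CreERT2-Ihh+/+ and knockout mice Villin-CreERT2-Ihhfl/fl, so both carried the tamoxifen-inducible recombinase, which the Villin promoter drives in the intestinal epithelium. Both genotypes received 1 mg tamoxifen intraperitoneally on 5 consecutive days, and colons were taken at day 7. No age was stated. Each of the 4 numbered colons of a genotype was treated as 1 mouse, and if they were not separate animals, the p-values measure only the spread between samples.

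Most dietary tryptophan that is not built into protein is broken down along the kynurenine pathway. Ido1 in immune and epithelial cells, or Tdo2 in liver, opens the indole ring, Afmid removes the formyl group to release kynurenine, and Kmo, Kynu and Haao then carry the product towards quinolinate and NAD. Ido1 is a classical interferon-induced enzyme, and in the gut it is made by dendritic cells, macrophages and epithelium. Wars, which loads tryptophan onto its transfer RNA, is also interferon-induced. Kynurenine and bacterial indoles are ligands of the aryl hydrocarbon receptor Ahr, a transcription factor whose best known target is Cyp1a1.

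The samples differed in ways the genotype labels do not give. Between 14465 and 15040 probes were detected per array, at a mean intensity of 902 to 1258. Ihh itself had log2 intensities of 10.17 to 10.50 in wildtype and 9.03 to 9.56 in knockout colons, with no overlap, in the direction of the labels. Colon epithelium markers (12 of 12) and smooth muscle markers (10 of 10) were all measurable. By their Xist and Y-linked signals, 1 of the 4 wildtype and 3 of the 4 knockout mice looked male. Skeletal muscle transcripts were high in wildtype 2, wildtype 3, knockout 2 and knockout 4, and skin transcripts were lowest in wildtype 1 and knockout 3. Knockout 4 correlated least with the other arrays (mean 0.956, against 0.964 to 0.977 for the rest).

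Across all 14754 probes tested, limma called 0.0136% at an adjusted p under 0.05 (2 probes, both lower in the knockout), and 1591 had an unadjusted p under 0.05. In 7.18% of the probes the genotypes did not overlap (4.66% higher and 2.53% lower in the knockout). Of the 9 genes, 4 (Ido1, Kynu, Afmid and Wars) passed the filter on dim probes, which asked for 4 or more arrays with a detection p under 0.05. None of these 4 was among the 2 probes called, and 2 of the 4 (Kynu lower, Wars higher) did not overlap between genotypes. Because the genes were chosen on this contrast, nothing is read from these counts. In whole tissue, fewer cells of a type and less RNA per cell cannot be told apart.

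Ido1, which starts the pathway, was detected in all 8 colons. Its SD over the 8 colons, which includes the difference between genotypes, was above that of 99.0% of the probes tested. Its raw intensity was 889.6, 406, 622 and 533 in wildtype 1 to 4, and 1276, 629, 1635 and 3618 in knockout 1 to 4. After background correction and quantile normalization the log2 values were 9.48, 8.24, 8.65 and 8.60 in wildtype, and 10.17, 9.16, 10.20 and 11.98 in knockout mice. Knockout 4 was far above all other colons, knockout 1 and 3 were above every wildtype, and knockout 2 fell between wildtype 1 and the other wildtype mice, so the groups overlapped by 1 pair of mice. The means were 8.74 ± 0.52 and 10.38 ± 1.17 (SD, n = 4 each), a log2 difference of 1.64 (SE 0.53) or 3.11-fold. A difference of this size or more, in either direction, was seen in 0.224% of the probes tested. Since Ido1 was chosen on this contrast, nothing is read from that share. Without knockout 4 the log2 difference was 1.10 (SE 0.35), or 2.14-fold. Wildtype arrays held beadchip positions A to D and knockout arrays the rest, and with position as a linear term the log2 difference was 0.78 (SE 1.10). That SE is larger than the difference, and the term cannot fully separate position from genotype.

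**Figure D1:**
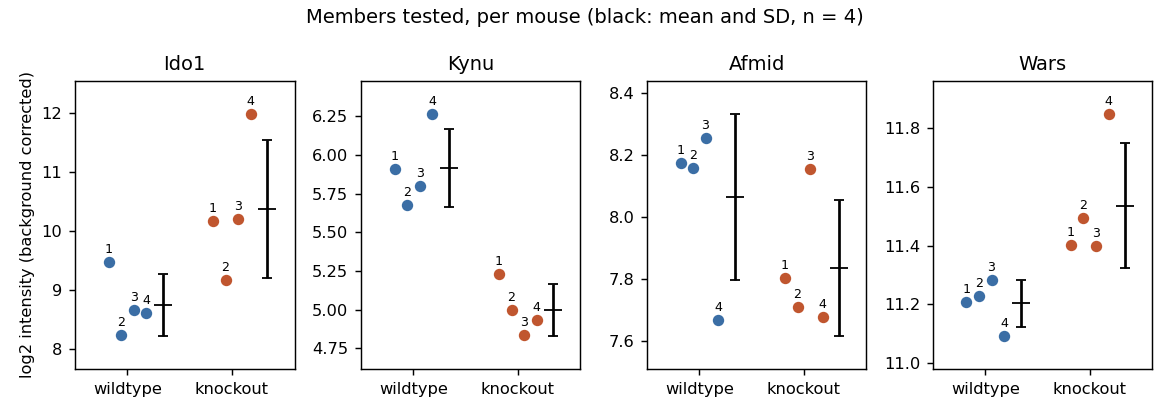
Log2 intensity of the 4 genes that passed the filter on dim probes, by genotype, with 1 point per mouse (the number is the replicate) and the mean and SD in black (n = 4). Ido1 is spread widely in the knockout with knockout 4 highest at 11.98, Kynu is lower in every knockout than in every wildtype, Afmid overlaps, and Wars is higher in every knockout colon.

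The Ido1 values are also given by the traits in which the mice differed, as a description. In the 4 mice with low skeletal muscle transcripts, Ido1 was 8.60 and 9.48 in the wildtype pair and 10.17 and 10.20 in the knockout pair. In the 4 mice with high skeletal muscle transcripts, it was 8.24 and 8.65 against 9.16 and 11.98. Among mice with a male pattern, the 1 wildtype colon had 9.48 and the 3 knockout colons had 9.16 to 11.98, an overlap, while among those with a female pattern the 3 wildtype colons had 8.24 to 8.65 and the 1 knockout colon 10.17. With the sex pattern as a term the difference was 1.32 (SE 0.61), and with skeletal muscle and skin scores as terms it was 1.53 (SE 0.62).

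Among the signals that induce Ido1, the interferon gamma transcript Ifng was detected in 0 wildtype colons and only in knockout 3. Irf1, a transcription factor through which interferon gamma acts, had log2 intensities of 13.27 to 13.32 in wildtype and 13.05 to 13.47 in knockout mice, a difference of 0.02 (SE 0.12, limma adjusted p = 0.954). Its value was lowest in knockout 4, the colon with the highest Ido1. Cxcl9, a chemokine induced by interferon gamma, was 6.65 to 7.54 in wildtype and 8.28 to 9.04 in knockout mice, a difference of 1.49 (SE 0.24) that did not pass (limma adjusted p = 0.191).

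Ido1 was set beside the interferon gamma genes mouse by mouse, as a description. The part of interferon in the Ido1 difference was not tested. Each list was given a score per mouse, the average over its genes of the log2 distance from that gene's 8-array mean. For a list of 16 interferon gamma regulators and targets, the score was 0.13, 0.35, 0.44 and 0.29 in knockout 1 to 4, and -0.42 to -0.23 in wildtype mice. The list crosses with other interferon pathways, through Stat2 (0.94) and Irf9 (0.67) among others, so its score is not particular to interferon gamma. Knockout 2, which had the lowest Ido1 of the knockouts, was the highest knockout in 7 of these 16 genes and the lowest in 4. Knockout 4 was the highest knockout in 2, and knockout 1 the lowest in 7. Knockout means were higher for 14 of the 16 genes, and the median log2 difference was 0.65, against 0.0051 over all probes tested. The 2 with lower means were the interferon gamma receptor genes Ifngr1 (-0.051) and Ifngr2 (-0.10). The genotypes did not overlap in 9 of the 16, all higher in the knockout, where 4.66% of all probes tested were higher without overlap. Limma called 0 of the 16 (9 at an unadjusted p under 0.05).

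Over the 8 arrays, the genes whose log2 values followed Ido1 most closely, among 10183 others, were Dhx29 (Pearson r = 0.98), Abce1 (0.98), Anln (0.97), Prc1 (0.97) and Exoc3l4 (0.97). Dhx29 is a helicase of translation initiation, Abce1 recycles ribosomes, and Anln and Prc1 act in cytokinesis. After the mean of each genotype was subtracted, r was 0.94 to 0.97 for these 5 genes. The genes were picked for their r over the same 8 arrays, so this value is no separate support. In each of the 5 genes, as in Ido1, knockout 4 was the highest colon and knockout 2 the lowest of the knockouts. These genes were picked as the closest of all, and the values are a description.

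**Figure D2:**
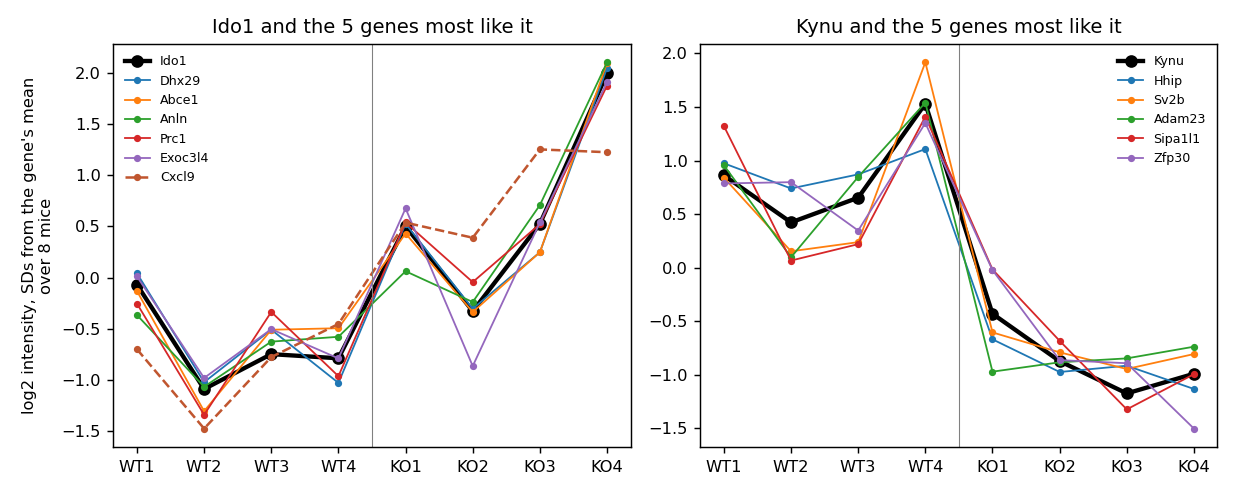
Log2 intensity of Ido1 (left) and Kynu (right) in each mouse, with the 5 genes most like each over the 8 arrays and, for Ido1, Cxcl9 (dashed), all as SDs from the gene's own mean. Ido1 and its 5 companions are highest in knockout 4 and dip in knockout 2, while Cxcl9 is about equal in knockout 3 and 4; Kynu and its companions drop between the wildtype and knockout mice.

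Markers of cells that can make Ido1 were set beside it. Of 11 measurable macrophage and dendritic cell genes, 8 had higher knockout means (median difference 0.29), and limma called 0 (1 at an unadjusted p under 0.05). Their score was -0.22 to 0.01 in wildtype mice and -0.06, 0.31, -0.19 and 0.36 in knockout 1 to 4. Knockout 4 had the highest value of both Ido1 and this score. Knockout 2 had the next highest score and the lowest Ido1 of the knockouts, and knockout 3 the lowest score of the knockouts and the next highest Ido1. Of the dendritic cell genes in the list, Batf3 and Fscn1 were detected in all 8 colons (differences of -0.00058 and -0.026), and Itgax, Flt3, Xcr1 and Ccr7 in 0. T and NK cell genes had a score of -0.43 to 0.36 in wildtype and -0.05 to 0.56 in knockout mice, and 5 of 6 were higher, with Cd4 and Cd8a detected in 0 colons. Colon epithelium markers scored -0.02 to 0.07 in wildtype mice, 0.01 to 0.06 in knockout 1 to 3 and -0.27 in knockout 4. The part of these cell types in the Ido1 difference was not tested.

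Tdo2, the other enzyme that opens the tryptophan ring, was detected in 0 of 8 colons, with raw intensities of 144 to 182 and detection p-values of 0.294 to 0.836. Ido2, a relative of Ido1 outside the member list, was also detected in 0. Ido1 was the 1 ring-opening enzyme with a signal above background.

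Afmid, the formamidase of the following step, had raw intensities of 444, 392, 507 and 351 in wildtype 1 to 4, and of 361, 324, 501 and 333 in knockout 1 to 4. Its log2 values were 8.17, 8.16, 8.26 and 7.67 in wildtype and 7.80, 7.71, 8.16 and 7.68 in knockout mice. Wildtype 4 lay with the lower knockouts and knockout 3 with the wildtypes, so the groups overlapped. The difference was -0.23 (SE 0.17), smaller than the SD of 0.27 among wildtype mice. Of 7 Afmid probes 3 passed the filter, and the other tested probes gave -0.19 (SE 0.29) and -0.31 (SE 0.30). With array position as a term the difference was 0.045, of the opposite sign.

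Kmo, the hydroxylase that turns kynurenine into 3-hydroxykynurenine, was detected in 0 colons (raw intensity 157 to 195). Haao, which opens the ring of 3-hydroxyanthranilate, was detected in wildtype 4 and knockout 4 only, with raw intensities of 164 to 200.2 over all arrays. Neither could be compared between genotypes.

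Kynu, kynureninase, which cuts kynurenine and 3-hydroxykynurenine, was above background in all 4 wildtype colons and in 0 of the 4 knockouts. Of the probes tested, 0.149% (22) showed that pattern and 0.0678% (10) the opposite. Kynu passed the filter on dim probes only through its 4 wildtype arrays and was chosen on this contrast. Nothing is read from these shares. The raw intensity was 207, 191, 218 and 223 in wildtype 1 to 4, and 174, 161, 172 and 170.0 in knockout 1 to 4. The log2 values were 5.91, 5.68, 5.80 and 6.26 in wildtype and 5.23, 5.00, 4.84 and 4.93 in knockout mice. Every knockout was below every wildtype, and both groups were close to background: only wildtype 4 had a detection p under 0.01.

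Since no knockout array detected Kynu, its fold on background-corrected values is given as a bound. The wildtype mean was compared with the mean of a floor in the knockout arrays, set in each at its lowest detected signal unless Kynu itself was above that, which gave a background-corrected signal at least 1.29-fold higher in wildtype. The bound holds on that scale only, since the raw signal, which contains the background, was 1.24-fold higher in wildtype. The measured means were 5.91 ± 0.25 and 5.00 ± 0.17 (SD, n = 4 each), with a fitted log2 difference of -0.91 (SE 0.15). Without background correction the difference was -0.27 (SE 0.071), and in the authors' processed table -0.29 (SE 0.075). With array position as a linear term it was -0.94 (SE 0.33). The genotypes held separate beadchip positions, so this term cannot fully separate position from genotype.

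**Figure D3:**
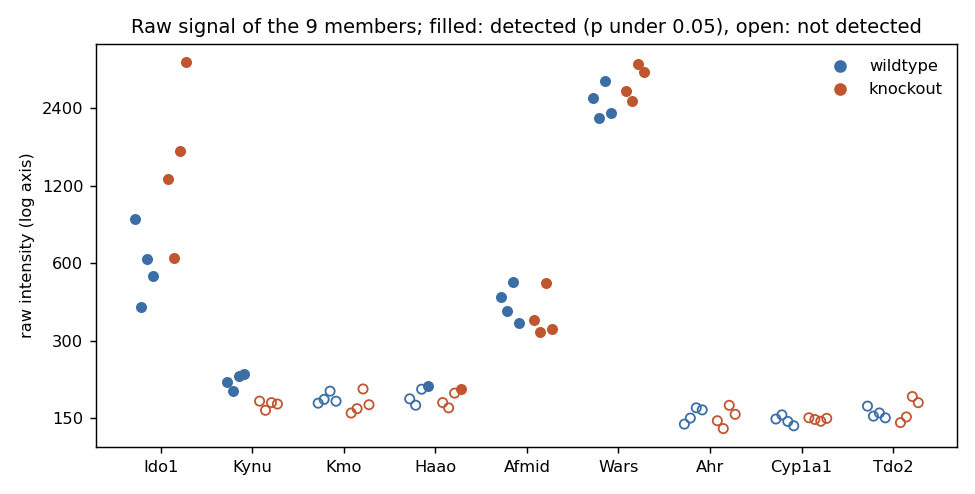
Raw intensity (log axis) of the 9 genes in each mouse, wildtype in blue and knockout in orange, for the probe with the highest mean of each gene, with filled points where the probe was detected at p under 0.05. Ido1, Afmid and Wars are detected in every colon, Kynu in the 4 wildtype colons only, Haao in 1 colon per genotype, and Kmo, Ahr, Cyp1a1 and Tdo2 in none.

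Within the 4 mice with low skeletal muscle transcripts Kynu was 5.91 and 6.26 in wildtype and 4.84 and 5.23 in knockout mice, and within the 4 with high transcripts 5.68 and 5.80 against 4.93 and 5.00. The 1 knockout with a female pattern had 5.23, below the 5.68 to 6.26 of the 3 wildtype mice with that pattern, and the 1 wildtype with a male pattern had 5.91, above the 4.84 to 5.00 of the 3 knockouts with it. With sex pattern as a term the difference was -0.84 (SE 0.18), and with the skeletal muscle and skin scores -0.79 (SE 0.14).

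Tissue markers were set beside Kynu, and limma called 0 genes in each of these lists (0 at an unadjusted p under 0.05 for skin, 3 for smooth muscle and 0 for liver and kidney). All 12 measurable skin genes were lower in the knockout on average, with overlapping scores of -2.57 to 2.13 in wildtype and -2.31 to 1.08 in knockout mice. Wildtype 4 had the highest skin score and the highest Kynu, while wildtype 1 had the lowest skin score and the next highest Kynu. All 10 smooth muscle genes were lower, with scores of 0.13 to 0.41 in wildtype mice and of 0.01, 0.16, -0.56 and -0.52 in knockout 1 to 4. Of 14 liver and kidney genes only 4 could be measured, all 4 lower, with scores of 0.07 to 0.33 in wildtype and -0.28 to -0.10 in knockout mice. The liver gene Alb and the kidney gene Umod were detected in 0 colons. The part of smooth muscle or of liver and kidney RNA in the Kynu difference was not tested.

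The genes whose log2 values followed Kynu most closely over the 8 arrays were Hhip (Pearson r = 0.97), Sv2b (0.96), Adam23 (0.96), Sipa1l1 (0.95) and Zfp30 (0.94). Hhip is the decoy receptor for hedgehog ligands and a hedgehog target gene, and it too was detected in 4 wildtype and 0 knockout colons. Sv2b is a synaptic vesicle protein and Adam23 a cell-surface protein of the nervous system. In all 5 genes every knockout colon was below every wildtype colon. After the genotype means were subtracted, r was 0.82 for Hhip, 0.90 for Sv2b, 0.70 for Adam23, 0.89 for Sipa1l1 and 0.73 for Zfp30, so part of the likeness was the step between genotypes. These genes were picked for their likeness, and the Kynu values of the 4 knockout arrays, like those of Hhip, were not above background. Wildtype 4 was the highest colon for Kynu and for each of these genes.

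Wars, the cytosolic tryptophanyl-tRNA synthetase, was detected in all colons. Its raw intensity was 2638, 2203, 3061 and 2299 in wildtype 1 to 4, and 2798, 2554, 3575 and 3311 in knockout 1 to 4. The log2 values were 11.21, 11.23, 11.28 and 11.09 in wildtype and 11.40, 11.49, 11.40 and 11.85 in knockout mice. The normalized groups did not overlap, with knockout 4 again highest. The difference was 0.33 (SE 0.13), or 1.26-fold, and 0.23 (SE 0.0999) without knockout 4. The other 3 Wars probes gave 0.37, 0.51 and 0.30, and in 1 of these 3 the groups did not overlap either. With array position as a term the difference was 0.14 (SE 0.27).

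Wars was set beside the other aminoacyl-tRNA synthetases. Of 17 measurable ones, 12 were higher and 5 lower, with a median log2 difference of 0.087, and limma called 0 (4 at an unadjusted p under 0.05). Wars ranked 5 among the 18, after Vars (0.64, SE 0.20, adjusted p = 0.387), Nars (0.51, SE 0.13, adjusted p = 0.326), Lars (0.37) and Rars (0.34, adjusted p = 0.450), the enzymes for valine, asparagine, leucine and arginine. The genotypes did not overlap in 4 of the 17, all higher in the knockout, where 4.66% of all probes tested were higher without overlap. Wars2, the mitochondrial enzyme for tryptophan, had the lowest difference (-0.74, SE 0.30, adjusted p = 0.438), with 8.44 in wildtype 1 and 6.79 to 7.78 in the other wildtype mice against 6.82 to 7.15 in the knockout. In 12 of the 17 genes, as in Wars, the highest of the 8 colons was knockout 4.

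Ahr, the receptor, and Cyp1a1, its target, were not measurable. Ahr had raw intensities of 136 to 168 (detection p 0.362 to 0.924) and Cyp1a1 of 140 to 154 (detection p 0.607 to 0.967), and both were detected in 0 colons. A probe that is not above background gives only a bound, so the data do not say whether either gene differed between genotypes.

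The promoter of Cyp1a1 is shown because it is the textbook target of Ahr, with the letters GCGTG, the core of the sequence bound by Ahr with Arnt, in capitals. The window covers 250 bases before to 50 bases after a RefSeq start of the gene (GRCm38.p6, chr9:57697363-57697662, plus strand). The RefSeq span of the gene, 57687928 to 57703824, begins before this window, so the start used is not the first base of that span.
Cyp1a1: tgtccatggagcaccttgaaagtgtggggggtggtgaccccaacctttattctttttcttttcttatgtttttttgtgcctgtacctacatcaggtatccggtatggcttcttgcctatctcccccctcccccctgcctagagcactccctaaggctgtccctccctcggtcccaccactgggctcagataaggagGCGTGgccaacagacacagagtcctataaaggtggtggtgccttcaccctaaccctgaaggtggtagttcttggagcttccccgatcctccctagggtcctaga
The match starts 54 bases before the start used for the window. RefSeq windows were matched by symbol for 5 of the 9 genes (Kmo, Haao, Afmid, Cyp1a1 and Tdo2), and 3 of the 5 (Cyp1a1, Haao and Tdo2) hold GCGTG on either strand, as do 32.4% of all 32851 windows. A consensus for the interferon-stimulated response element (in 3.44% of all windows) is in 0 of the 5. The same holds for a consensus of STAT sites (in 8.3% of all windows). The interferon-induced genes Ido1 and Wars are not among the 5, and so few windows say little at those rates. These are matches of letters and not bound sites.

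Beyond the 9 genes, 65 partner genes of tryptophan and NAD metabolism, tryptophan transport, the Ahr axis and transfer RNA charging were on the array, and 48 were tested. Limma called 0 of the 48, where it called 0.0136% of all probes tested, and the smallest adjusted p was 0.326. An unadjusted p under 0.05 was seen in 6 of the 48 and in 1591 of all 14754 probes tested. With so few calls anywhere, nothing is read from the 0. Of the 48, 28 were higher and 20 lower, with a median log2 difference of 0.010 against 0.0051 over all probes tested.

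**Figure D4:**
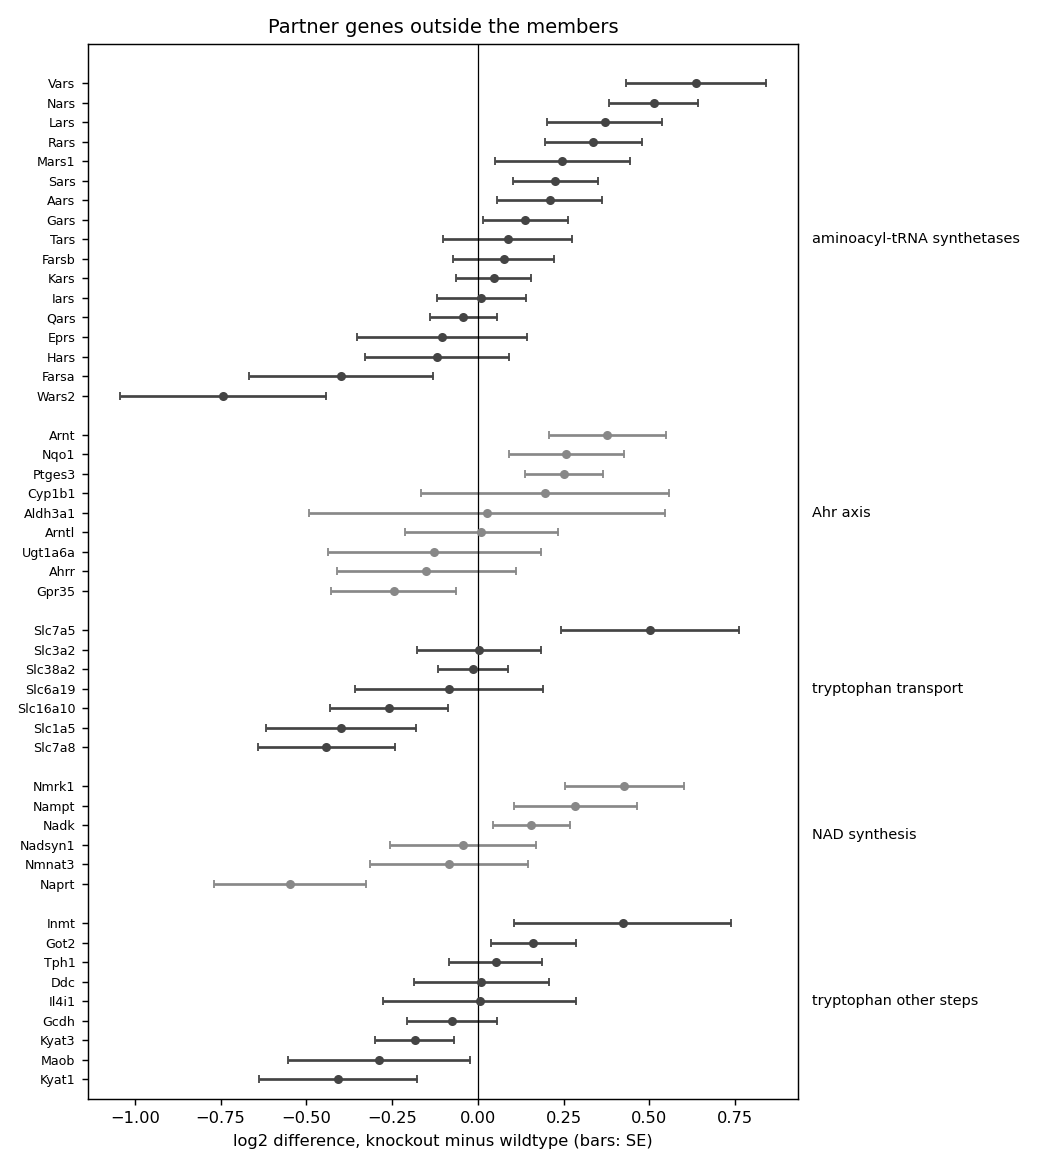
Log2 difference between knockout and wildtype (points, with SE) of the 48 partner genes that passed the filter on dim probes, grouped by list. The points scatter on both sides of 0 in every list, from -0.74 for Wars2 to 0.64 for Vars. No gene passed the test, which 0.0136% of all probes tested passed.

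Enzymes of the side branches of tryptophan were measurable in 9 of 16 cases, with 5 higher and 4 lower and a median of 0.0056. Kyat1, which makes kynurenic acid, had -0.41 (SE 0.23, limma adjusted p = 0.531), with 10.97 to 11.53 in wildtype mice, 10.93 to 11.29 in knockout 1 to 3 and 10.20 in knockout 4. Its relative Kyat3 had -0.18 (adjusted p = 0.560). Inmt, which methylates tryptamine, had 0.42 (adjusted p = 0.612), and Got2, a mitochondrial aminotransferase, 0.16 (adjusted p = 0.617). Tph1, which commits tryptophan to serotonin in enterochromaffin cells, had 8.51 to 8.82 in wildtype and 8.42 to 8.85 in knockout mice, a difference of 0.052 (SE 0.14, adjusted p = 0.903). Qprt, which takes quinolinate on to NAD, was detected in 0 colons.

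In NAD synthesis from other precursors, 3 of 6 measurable genes were higher and 3 lower, with a median of 0.057. Naprt, which uses nicotinic acid, had 11.97 to 12.26 in wildtype mice, 11.75 to 11.97 in knockout 1 to 3 and 10.90 in knockout 4, a difference of -0.55 (SE 0.22, limma adjusted p = 0.438). Nmrk1, a nicotinamide riboside kinase, was 5.35 to 5.98 in wildtype and 5.98 to 6.42 in knockout mice, a difference of 0.43 (SE 0.17, adjusted p = 0.440). Nampt, the salvage enzyme for nicotinamide, had 0.28 (adjusted p = 0.562), and Nadk, which makes NADP, 0.16 (adjusted p = 0.603).

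Of 7 measurable genes for tryptophan and other amino acid transport, 2 were higher and 5 lower, with a median of -0.084. Slc7a5, the light chain of the large neutral amino acid exchanger, was 9.88 to 10.36 in wildtype mice, 10.29 to 10.41 in knockout 1 to 3 and 11.46 in knockout 4, a difference of 0.50 (SE 0.26, limma adjusted p = 0.503). Its partner chain Slc3a2 had 0.0037 (SE 0.18). Slc7a8, a related exchanger of the basolateral membrane, had -0.44 (SE 0.20, adjusted p = 0.468), and Slc16a10, a carrier of aromatic amino acids, -0.26 (adjusted p = 0.578). Slc1a5, a glutamine carrier, had -0.40 (adjusted p = 0.519). It was detected in 4 wildtype colons and 1 knockout colon, so its knockout values were mostly not above background.

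Of 13 genes of the Ahr axis 9 were measurable, with 6 higher and 3 lower and a median of 0.027. Arnt, the partner of Ahr, had 6.60 to 6.77 in wildtype and 6.64, 7.35, 6.96 and 7.36 in knockout mice, a difference of 0.38 (SE 0.17, limma adjusted p = 0.469). Ptges3, the p23 co-chaperone of the receptor complex, had 0.25 (adjusted p = 0.471), Nqo1, a quinone reductase induced through Ahr and Nrf2, 0.26 (adjusted p = 0.570) and Gpr35, a receptor for kynurenic acid, -0.25 (adjusted p = 0.611). The Ahr target genes Ahrr (-0.15, SE 0.26) and Cyp1b1 (0.19, SE 0.36) did not pass, and Tiparp and Cyp1a2 were detected in 0 colons.

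**Figure D5:**
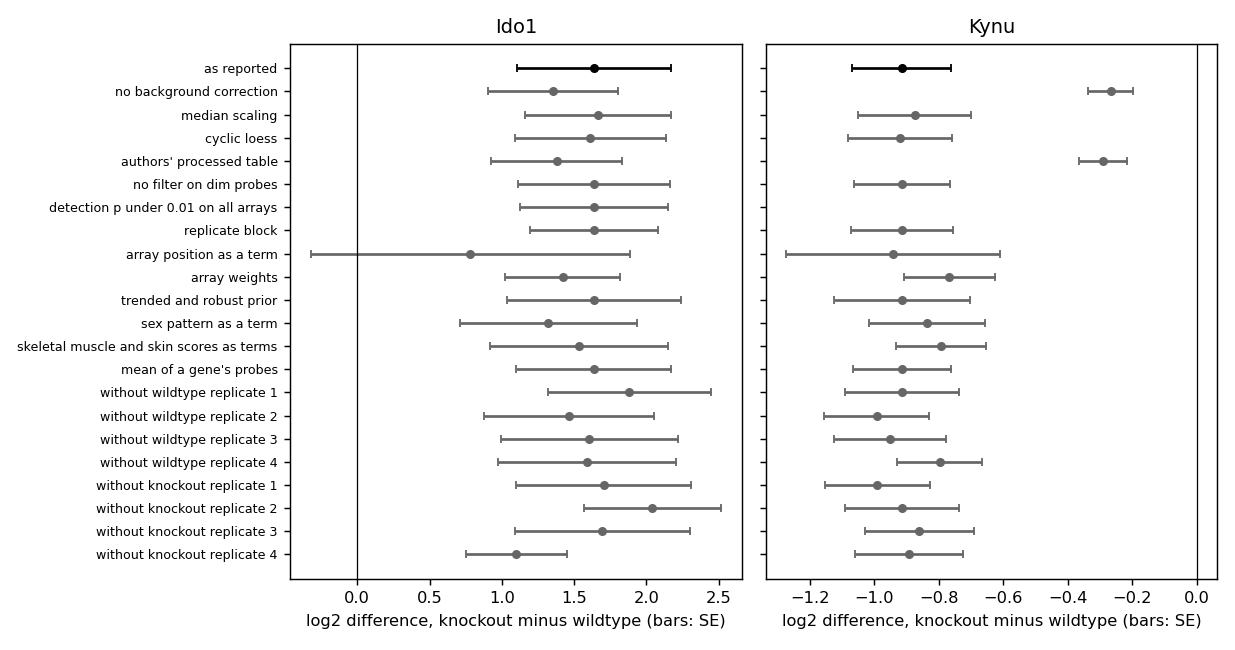
Log2 difference of Ido1 (left) and Kynu (right) between knockout and wildtype, with SE, as reported (black) and under each other setting or without each mouse (grey). The Ido1 estimates run from 0.78 with array position as a term to 2.04 without knockout 2. The SE of the lowest, 1.10, is larger than that estimate, and position cannot be fully separated from genotype. Kynu estimates run from -0.99 without wildtype 2 to -0.27 without background correction. Kynu has no value under the stricter filter on detection.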

How the data were processed

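Per the labels, total RNA was amplified with Illumina TotalPrep and carried Cy3. The deposited raw table holds, per the file headers, a mean bead intensity and a detection p-value per probe and array. GenomeStudio is in the submitters' processing notes without a version. The authors' processed intensity values share 1 minimum and 1 maximum over all arrays and match a quantile normalization of the raw values to within 0.028 on the log2 scale. No genome build applies.

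Probes took their names from the platform annotation (23978 with 1 symbol, 1719 with none). Starting from the raw intensities, limma 3.58.1 in R 4.3.3 corrected background (normexp fitted through the deposited detection p-values), added an offset of 16 and quantile normalized the arrays. The 14754 probes with 4 or more arrays at a detection p under 0.05, whatever the group, entered a linear model with genotype as the only term (lmFit, eBayes, two-sided, Benjamini-Hochberg, called at 0.05). Where several probes of a gene were tested, the one with the highest mean stands for it. Named genes are the 9 members, up to 4 genes per partner list with the smallest p, the 5 genes most correlated with Ido1 and with Kynu, and Irf1, Ifng and Cxcl9. Ahrr, Cyp1b1, Tph1, Slc3a2, Ido2, Qprt, Tiparp and Cyp1a2 lie outside that rule and were named after their values were seen, as were the cell type markers given at a detection count of 0. Members, lists and tests were chosen with earlier results of these data known. The fit was tested on simulated data. The number of arrays limits the precision.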

Additional observations from a re-analysis of the deposited data

Results flagged for a closer look

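Within the wildtype group, Afmid in wildtype 4 stood apart, with a log2 value of 7.67 against 8.16 to 8.26 in the other 3. Its gap to the nearest of them was 0.836 of the group's range, above the critical value of Dixon's test for 4 samples. Chance alone marks about 1 in 20 groups in this way, and 8 groups were looked at (4 genes in each genotype). Without wildtype 4 the Afmid difference was -0.36.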

How the results depend on the processing

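Over 13 other settings the Ido1 difference was 0.78 to 1.67, and 1.10 to 2.04 with each mouse left out. Kynu was -0.94 to -0.27 over 12 settings and -0.99 to -0.80 with each mouse left out. Kynu moved most without background correction (-0.27) and in the authors' processed table (-0.29), neither of which subtracts background; with a filter that asks for a detection p under 0.01 in every colon it was not tested. Wars was 0.14 to 0.38 and Afmid -0.35 to 0.045, with Afmid above 0 (0.045) and Wars lowest (0.14) with array position as a term. The count of 2 probes called became 0 without background correction, in the authors' processed table, with the filter of detection p under 0.01, with the replicate block, and with array position, sex pattern or the tissue scores as terms, 1 with a trended and robust prior, and 4 after averaging the probes of each gene. With each mouse left out the count was 0 to 14, with 14 without knockout 1. The partner genes called were 0 in every setting, while the count over all probes tested was at most 14. Deviations of same-numbered arrays correlated at 0.14, 0.21, -0.18 and -0.038, with no differently numbered arrays set beside them. Whether the numbers pair the mice was therefore not settled. The replicate block cannot move a difference in this balanced design (Ido1 1.64), and its SE for Ido1 was 0.44 against 0.53. The cause of these changes was not tested. The signal over background limits Kynu, and leaves Kmo, Haao, Ahr, Cyp1a1 and Tdo2 without a comparison.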
